A study of Sus scrofa with 36 samples.

Results

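The immediate early genes of the AP-1, EGR and MYC families are represented here by 10 listed genes: FOS, FOSB, FOSL2, JUN, JUNB, JUND, EGR1, ATF3, IER2 and MYC. A probe was taken for a listed gene when its name on the array equalled the gene symbol or its description held the symbol in round brackets. This rule found 14 of the 60305 probes on the array, which covered 7 of the 10 genes, with 5 probes for FOS, 4 for MYC and 1 each for FOSL2, JUN, JUNB, EGR1 and ATF3. The rule gave no probe for FOSB, JUND or IER2, and no probe was found under another name for JUND or IER2. A further 5 probes belonged to listed genes by their sequence, an older name or their description. These were a bright JUN probe that the array calls C-JUN, a FOSB probe, and 3 probes with the same 60 bases as another FOS, JUN or MYC probe. Of the 14 probes of the rule, 12 passed the filter on dim signals, and 6 genes had at least 1 tested probe. JUN was tested only through the probe called C-JUN, so that 5 genes would be tested under the rule alone.

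Thyroid glands came from 36 castrated male pigs, which entered a climatic room at 11 weeks of age. Creole (CR), Large White (LW) and F1 (Large White crossed with Creole) pigs were killed either at 24 °C or after heat. The labels give the heat as 30 °C, and the protocol text as 32 °C for 5 days. By the study's methods some heated pigs were killed after 5 days and others a day earlier, and the labels do not say which. The breeds and temperatures made 6 groups of 6 pigs, written below as CR 24, CR 30, F1 24, F1 30, LW 24 and LW 30. All the 24 °C pigs were slaughtered before the room was warmed, so temperature, age at slaughter and day of slaughter cannot be told apart. The blocks held littermates, and the sire, dam, pen and slaughter day of each pig are not in the labels, so the pigs of a group were treated as separate animals. The p-values thus take no account of shared litters, pens or slaughter days and may be too small. RNA of the whole gland was labelled with Cy3 and hybridised to 1-colour Agilent arrays. Values are log2 of quantile-normalised spot intensity, and a probe is called when its limma p-value, adjusted by Benjamini-Hochberg over the 46222 tested probes, is under 0.05. Between 72.8% and 80.3% of the spots of an array were well above background. Of the follicular cell markers, TG, TSHR, PAX8, SLC5A5, FOXE1 and DUOX2 were well above background on all 36 arrays, DIO1 on 0 arrays, and NKX2-1 was not named on a probe.

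Immediate early genes are switched on within minutes of a stimulus, without the need for new protein, mostly through MAP kinases that act on serum response factor with its ELK partners and on CREB. FOS and JUN proteins pair through leucine zippers to form AP-1, a dimer that binds DNA at the promoters of genes for growth, inflammation and matrix turnover. EGR1 is a zinc finger factor driven by the same kinases, and MYC pairs with MAX to drive ribosome and nucleotide synthesis. Their messages are short-lived, so that their level in a tissue sample reflects signalling shortly before sampling, including that of handling and slaughter. In the thyroid follicle, thyrotropin and growth factors are known to induce FOS, JUN, EGR1 and MYC.

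The probes that carry the FOS and JUN results are shown first. For FOS the agreement between probes at different places in the message is part of the evidence. The tested JUN probes hold the same 60 bases, so the JUN result stands on a single sequence. The FOS coding probe (FOS probe 5) starts at base 769 of the pig transcript, and the JUN coding probe (JUN probe 2) at base 1114. FOS probes 1 and 2 start at bases 1880 and 1859 of the same FOS transcript. The capital in FOS probes 1 and 3 marks a base that FOS probe 2 does not hold, and only the stretch around it is printed. FOS probe 1 shares 57 bases in a row with FOS probe 3 and 21 with FOS probe 2, so these probes read nearly the same stretch and are not independent, whereas the coding probe lies apart from them. The ATF3 probe is shown because it was too dim to test on most arrays.
FOS coding probe: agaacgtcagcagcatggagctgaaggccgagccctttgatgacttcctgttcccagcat
FOS probe 1: ggtctgaaTgttctgacattaacagttttc
FOS probe 2: ggtctgaagttctgacattaacagttttc
FOS probe 3: ggtctgaaTgttctgacattaacagttttc
JUN coding probe: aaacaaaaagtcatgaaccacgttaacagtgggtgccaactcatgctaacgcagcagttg
ATF3 probe: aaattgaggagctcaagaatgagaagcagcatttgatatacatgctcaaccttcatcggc

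The FOSL2 and JUNB probes are shown on the strand opposite to the one on the array, with an ATG triplet in capitals. After the ATG of the JUNB sequence the opposite strand stays open for 14 codons, while the strand on the array has an open frame of 0 codons. In FOSL2 the opposite strand holds 5 codons from the ATG to the end of the probe, and the strand on the array has an open frame of 15 codons. A count of open codons in a probe does not show which strand codes for the protein. The residues encoded after each ATG were not compared with the JUNB or FOSL2 protein, so these counts do not decide the strand. Among probes of the same design set that overlap another probe of the same gene name, 984 ran in the same direction, with a median intensity of 1011 on 1 array, and 65 ran in the opposite direction, with a median of 69. Neither the FOSL2 nor the JUNB probe shared a stretch with another probe of its gene, so the strand that it detects was not tested. Either probe may therefore read the strand opposite to the message, and its values may not report the level of the gene.
FOSL2 probe, opposite strand: cccccaccgcggatcATGtaccaggattat
JUNB probe, opposite strand: ATGtgcactaaaatggaacagcccttctac

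FOS, JUN, EGR1 and MYC were lower in the thyroids of 30 °C pigs than in those of 24 °C pigs, by 2.98-fold for FOS, 1.86-fold for JUN, 1.64-fold for EGR1 and 1.25-fold for MYC. In total 4 of the 6 tested genes were called, all of them lower, against 0.876% of all tested probes called lower and 1.18% called in either direction. Among the 11229 named genes, each taken on its brightest tested probe, 1.07% were called lower. The median difference over the 6 genes was -0.52 on the log2 scale, against 0.01 over all tested probes. FOSL2 and JUNB, each on a single probe whose strand was not tested, were not called, and their messages may not have been measured. Both nevertheless enter the count of 6 tested genes and the median difference over these genes.

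FOS encodes the partner of JUN in the classical AP-1 dimer and gave the largest difference among the 6 genes. In CR 24 pigs the log2 intensity of FOS probe 1 had a lowest value of 11.003, a median of 12.03 and a highest value of 13.55. In CR 30 pigs it ran from 10.13 to 11.60 with a median of 10.87. The 24 °C range of CR thus reached well above the 30 °C range but overlapped it at the lower end, where 3 of the 6 CR 30 pigs lay below the lowest CR 24 pig. F1 24 pigs ran from 11.15 to 13.49 (median 12.04) and F1 30 pigs from 9.51 to 12.23 (median 10.38). LW 24 pigs were the highest and tightest group, from 12.47 to 13.82 (median 13.10), and LW 30 pigs the widest, from 9.27 to 13.33 (median 11.02). In each of F1 and LW, 4 of the 6 pigs at 30 °C lay below all the 24 °C pigs of their breed. Over all breeds the mean was 12.48 ± 0.83 (SD, n = 18) at 24 °C and 10.90 ± 1.14 (SD, n = 18) at 30 °C. The difference was -1.58 on the log2 scale (SE 0.31, 95% interval -2.20 to -0.95, limma adjusted p = 0.00219), and 16 of the 18 pigs at 30 °C lay below the 24 °C mean of their breed.

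The other FOS probes gave the same direction and were all called. FOS probe 5, in the coding sequence, went from 9.07 ± 0.78 to 7.69 ± 0.99 (SD, n = 18 each), a log2 difference of -1.38 (SE 0.27, limma adjusted p = 0.00187). The differences of FOS probes 2, 3, 4 and 6 lay between -1.62 and -1.56, with adjusted p-values between 0.00151 and 0.00273. Across the 36 pigs the deviations of FOS probe 5 from the group means had a Pearson correlation of 0.98 with those of FOS probe 1, so that the same pigs were high on both stretches of the message.

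**Figure D1:**
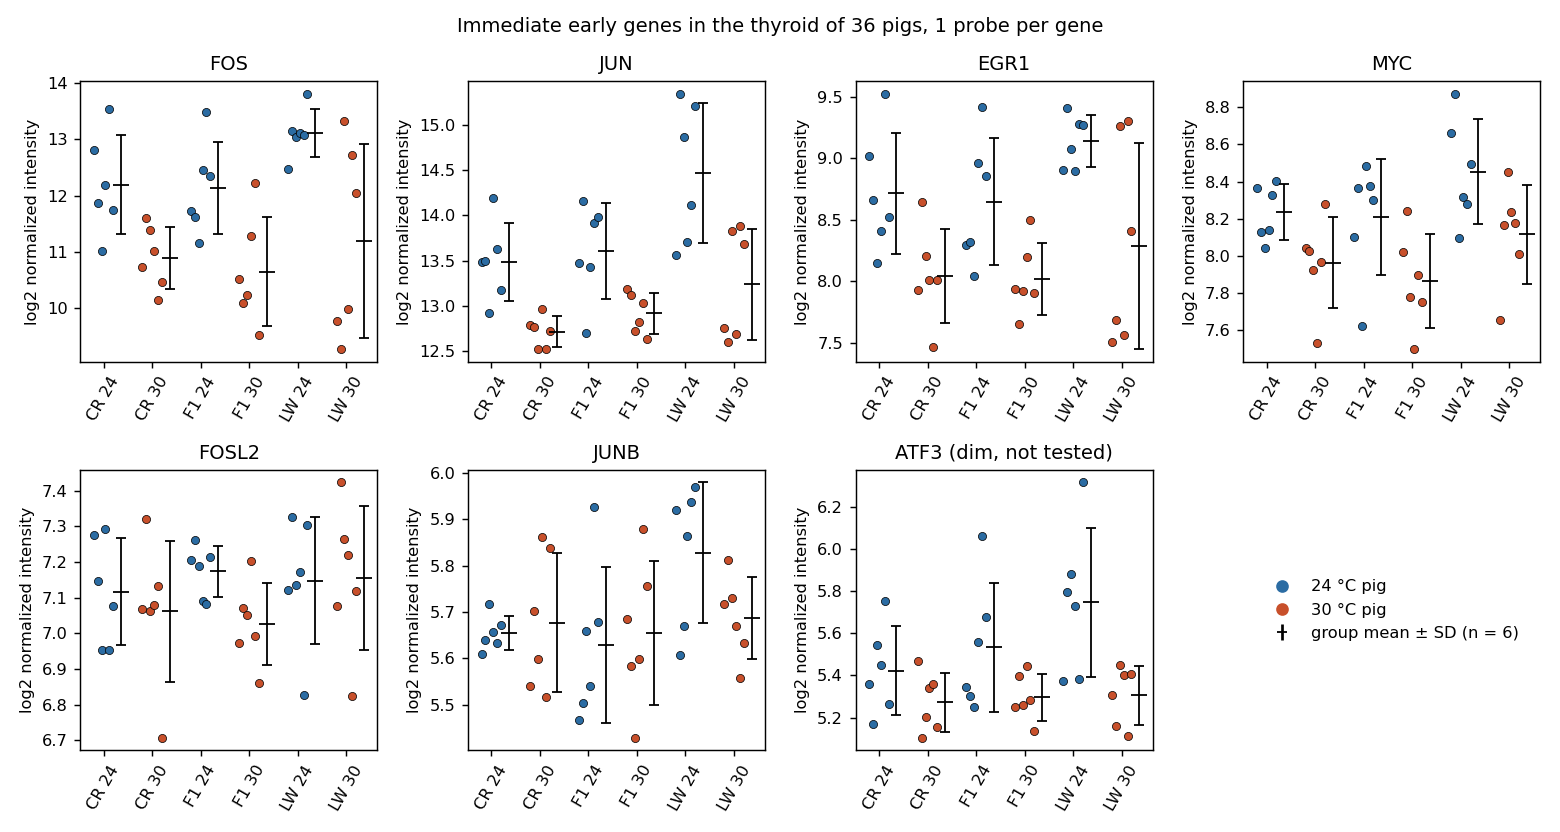
Log2 quantile-normalised intensity (vertical axes) of tested listed genes and of the dim ATF3 probe in each of the 6 groups (horizontal axes), 1 point per pig, with the group mean ± SD (n = 6) in black. FOS, JUN and EGR1 were lower at 30 °C than at 24 °C in each breed on the mean, with LW 24 the highest group and LW 30 split widely for FOS.

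JUN, the AP-1 subunit that can also pair with itself, had the smallest adjusted p-value of the 6 genes. JUN probe 2 ran from 12.92 to 14.19 (median 13.49) in CR 24 pigs and from 12.52 to 12.96 (median 12.74) in CR 30 pigs. Only the highest CR 30 pig reached into the CR 24 range. F1 24 pigs ran from 12.70 to 14.15 (median 13.69) and F1 30 pigs from 12.63 to 13.19 (median 12.93). LW 24 pigs ran from 13.56 to 15.34 (median 14.48) and LW 30 pigs from 12.61 to 13.88 (median 13.22). The groups overlapped in every breed, but all 18 pigs at 30 °C lay below the 24 °C mean of their breed. The mean was 13.85 ± 0.72 at 24 °C and 12.96 ± 0.43 at 30 °C (SD, n = 18 each), a log2 difference of -0.89 (SE 0.16, 95% interval -1.22 to -0.57, limma adjusted p = 0.000715). JUN probe 3, which holds the same 60 bases in other spots of the array, gave -0.87 (adjusted p = 0.000895). JUN probe 1, the only JUN probe that the rule found, rose clearly above background in 1 of 36 pigs and was not tested. Without the filter it gave -0.10 (SE 0.06, limma adjusted p = 0.737).

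The probe of JUNB, a JUN family member with weaker activity that is also serum-induced, read near background. This probe passed background in 32 of 36 pigs, with a mean of 5.70 ± 0.15 at 24 °C and 5.67 ± 0.13 at 30 °C (SD, n = 18 each). The log2 difference was -0.03 (95% interval -0.12 to 0.06, limma adjusted p = 0.921). FOSL2, a FOS family member that is usually induced later and more lastingly than FOS, had 7.15 ± 0.13 at 24 °C and 7.08 ± 0.17 at 30 °C, a log2 difference of -0.07 (95% interval -0.17 to 0.04, limma adjusted p = 0.784). For both genes 12 of the 18 pigs at 30 °C lay below the 24 °C mean of their breed. The open question on the strand of both probes, given with their sequences, applies to these values.

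ATF3, a stress-induced partner of JUN that often represses transcription, was above background mainly at 24 °C. Its probe passed background in 9 of the 18 pigs at 24 °C and in 2 of the 18 at 30 °C, and in 4 of 6 pigs of LW 24, the group with the most. It thus missed the filter, which asks for 5 of the 6 pigs of a group. The mean was 5.57 ± 0.31 at 24 °C, with a highest pig of 6.31 in LW 24, and 5.29 ± 0.12 at 30 °C, with a highest pig of 5.47. In all, 17 of the 18 pigs at 30 °C lay below the 24 °C mean of their breed. With no filter on dim probes the log2 difference was -0.28 (SE 0.07, unadjusted p = 0.000738, limma adjusted p = 0.0733), which missed the threshold. FOSB, another partner of JUN, passed background in 3 of 36 pigs, with means of 5.21 at 24 °C and 5.2 at 30 °C, and gave -0.01 without the filter (limma adjusted p = 0.990).

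EGR1, the zinc finger factor, followed FOS. Like FOSL2 and JUNB, it stood on a single probe. That probe shared no stretch with another probe named for EGR1, so the strand it detects was not tested either. In CR the EGR1 probe ran from 8.15 to 9.52 (median 8.59) at 24 °C and from 7.47 to 8.64 (median 8.01) at 30 °C. F1 24 pigs ran from 8.04 to 9.42 (median 8.59) and F1 30 pigs from 7.65 to 8.50 (median 7.93). LW 24 pigs ran from 8.90 to 9.41 (median 9.17) and LW 30 pigs from 7.51 to 9.30 (median 8.05). In every breed 4 of the 6 pigs at 30 °C lay below the lowest pig at 24 °C, and the other two overlapped it. The mean was 8.83 ± 0.46 at 24 °C and 8.12 ± 0.54 at 30 °C (SD, n = 18 each), a log2 difference of -0.72 (SE 0.15, 95% interval -1.03 to -0.40, limma adjusted p = 0.00737).

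MYC, the growth factor-induced transcription factor outside the AP-1 and EGR families, fell least among the called genes, and its call was close to the threshold. MYC probe 1 ran from 8.04 to 8.40 (median 8.23) in CR 24 and from 7.53 to 8.28 (median 8.0) in CR 30 pigs. F1 24 pigs ran from 7.63 to 8.49 (median 8.33) and F1 30 pigs from 7.5 to 8.24 (median 7.84). LW 24 pigs ran from 8.10 to 8.87 (median 8.40) and LW 30 pigs from 7.66 to 8.45 (median 8.17). The ranges overlapped in every breed, and 16 of the 18 pigs at 30 °C lay below the 24 °C mean of their breed. The log2 difference was -0.32 (SE 0.08, 95% interval -0.48 to -0.15, limma adjusted p = 0.0373). The other 4 tested MYC probes gave differences between -0.31 and -0.25, and 1 of them, MYC probe 5, was called (adjusted p = 0.0425), a call lost in 23 of the 36 omissions of a pig (adjusted p of up to 0.0766) and under 5 of 10 other settings (up to 0.114). MYC probe 2 has the same 60 bases as MYC probe 5 and was not called (adjusted p = 0.0720), and neither were MYC probes 3 and 4 (adjusted p = 0.0613 and 0.155). The call of MYC probe 1 was lost without any 1 of 16 pigs, at an adjusted p of 0.0526 to 0.0643 and a log2 difference of -0.35 to -0.29 over all 36 omissions. These pigs were CR 24 replicates 1, 5 and 6, CR 30 replicates 3 and 4, F1 24 replicates 2, 4, 5 and 6, F1 30 replicates 3, 4 and 6, LW 24 replicates 1 and 2 and LW 30 replicates 1 and 6 (numbered in deposit order).

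**Figure D2:**
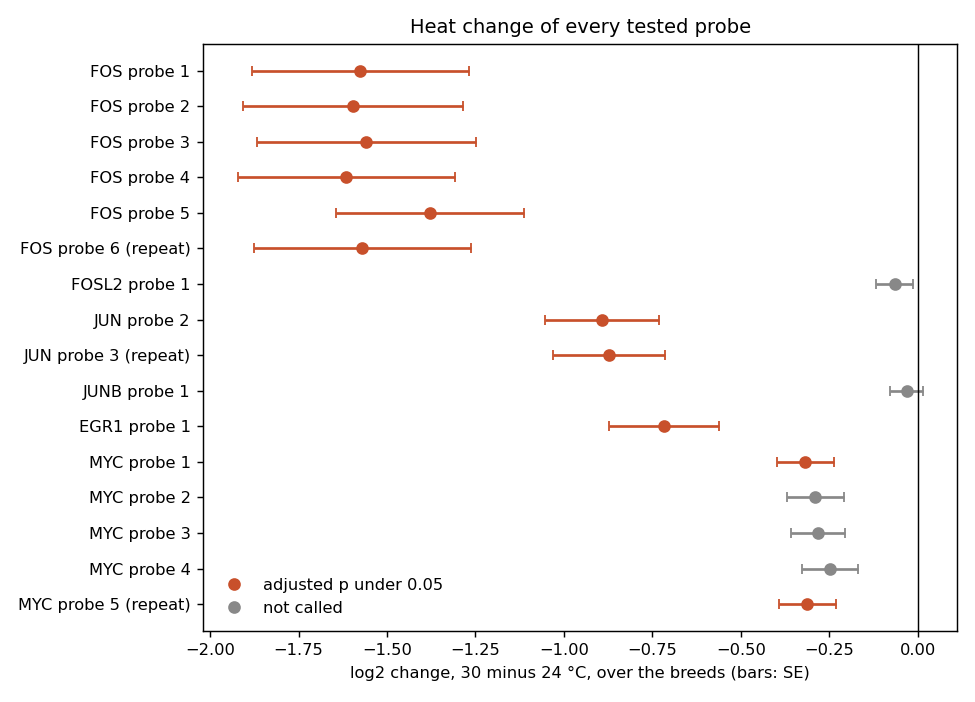
Difference between 30 °C and 24 °C pigs (horizontal axis, log2 units, bars ± SE) for each tested probe of the listed genes (vertical axis), with called probes in orange. All 6 FOS probes, both JUN probes and EGR1 were called, and MYC probes 1 and 5 were called with the other MYC probes at similar values. The FOSL2 and JUNB probes, whose strand was not tested, lie near 0.

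Within a breed, the heat differences of FOS, JUN, EGR1 and MYC were all negative, but none of the 6 tested genes was called in any breed. For FOS the log2 difference was -1.31 in CR (95% interval -2.41 to -0.21), -1.49 in F1 (-2.59 to -0.39) and -1.93 in LW (-3.03 to -0.82), with limma adjusted p-values of 0.739, 0.280 and 0.499. For JUN it was -0.76 in CR, -0.69 in F1 and -1.22 in LW (adjusted p = 0.561, 0.350 and 0.155). For EGR1 it was -0.67, -0.63 and -0.85 (adjusted p = 0.723, 0.397 and 0.794), and for MYC -0.27, -0.34 and -0.34 (adjusted p = 0.892, 0.370 and 1.00). By limma 0 of the 6 genes were called in CR, F1 or LW, while 3, 4 and 4 of them had an unadjusted p under 0.05, as did 2656, 4918 and 1852 of the 46222 tested probes. The background was 0.387% of all probes called in CR, 0.383% in F1 and 0% in LW, where 0 probes were called. No listed gene had all its 30 °C pigs below all its 24 °C pigs in any breed, a pattern that 0.465% of all tested probes showed in CR, 0.474% in F1 and 0.0865% in LW. JUN in LW was called when LW 24 replicate 1 was left out (adjusted p = 0.0496), and in no other omission.

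The heat difference was largest in LW for FOS, JUN and EGR1, but the differences between breeds were within their error. The FOS difference in LW minus that in CR was -0.62 (95% interval -2.18 to 0.95), the JUN value was -0.46 (-1.26 to 0.34), the EGR1 value -0.18 (-0.97 to 0.61) and the MYC value -0.06 (-0.48 to 0.35). The F1 minus CR values were smaller in size for FOS and JUN, at -0.18 (-1.74 to 1.38) and 0.08 (-0.72 to 0.87). In the limma test of the interaction of breed and temperature 0 of the 46222 probes were called and 2157 had an unadjusted p under 0.05, of which 0 were the probes that stand for the 6 tested genes. With 6 pigs a group these intervals are wide, and for FOS they span from a larger fall in LW than in CR to a smaller one.

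**Figure D3:**
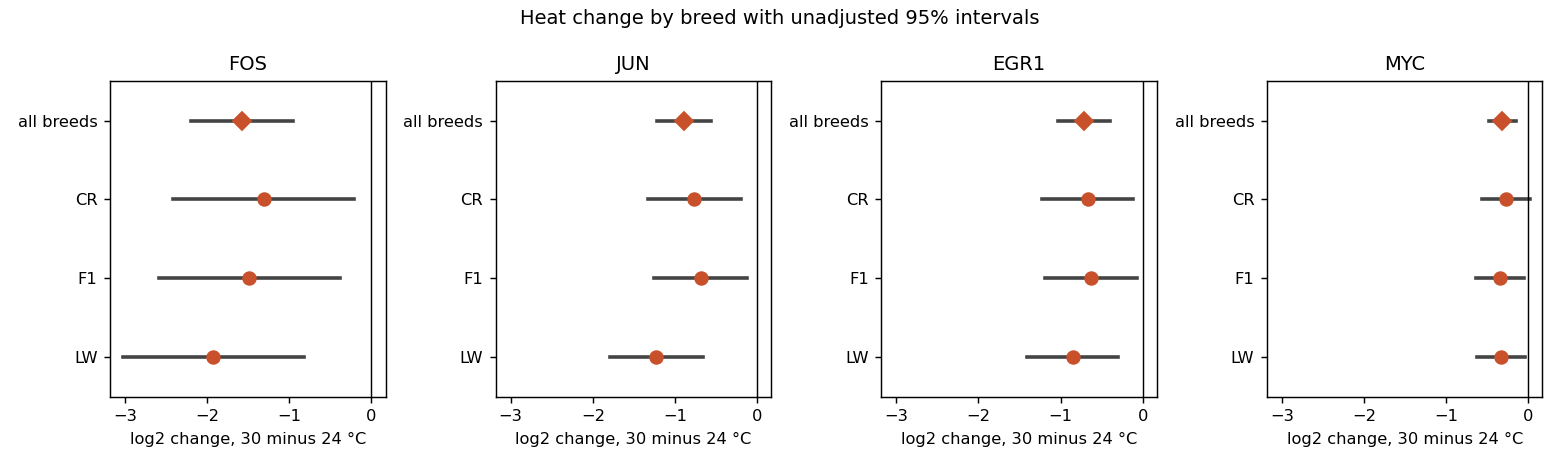
Difference between 30 °C and 24 °C pigs (horizontal axes, log2 units, with unadjusted 95% intervals as lines) over all breeds and within CR, F1 and LW (vertical axes) for FOS, JUN, EGR1 and MYC. All 4 genes lie below 0 in all 3 breeds, and the intervals of the breeds overlap.

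JUN was the only listed gene called between the purebred groups. Over both temperatures it was higher in LW than in CR by 0.75 on the log2 scale (SE 0.20, 95% interval 0.35 to 1.15, 1.68-fold, limma adjusted p = 0.00847), and JUN probe 3 gave 0.76 (adjusted p = 0.00706). This made 1 of the 6 genes called, against a background of 12.9% of all probes called between LW and CR and 7.17% called higher in LW, so the share of called genes was near the background. The JUN difference between LW and CR was 0.98 at 24 °C (adjusted p = 0.0406) and 0.52 at 30 °C (95% interval -0.04 to 1.09, adjusted p = 0.341). The LW minus CR values of FOS, EGR1 and MYC were 0.61, 0.34 and 0.19, with adjusted p-values of 0.318, 0.266 and 0.234.

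Differences between F1 and CR pigs were within their error for these genes. By limma 0 of the 6 genes were called between F1 and CR (background 3.38%), and 0 had an unadjusted p under 0.05, with values of -0.15 for FOS (95% interval -0.91 to 0.61), 0.17 for JUN (-0.23 to 0.56), -0.05 for EGR1 (-0.43 to 0.34) and -0.06 for MYC (-0.26 to 0.14). Between F1 and LW 0 of the 6 genes were called on their brightest probe (background 1.99%, or 0.924% called lower in F1), and 3 had an unadjusted p under 0.05, as did 6187 of the 46222 tested probes. All 6 values were negative, among them -0.76 for FOS (adjusted p = 0.376) and -0.59 for JUN (adjusted p = 0.125). MYC probe 2 was called lower in F1 than in LW, by -0.38 (SE 0.10, limma adjusted p = 0.0347). The other 4 tested MYC probes lay between -0.33 and -0.25 and were not called, and neither was MYC probe 5 with the same 60 bases (adjusted p = 0.0893). The call of MYC probe 2 was lost without any 1 of 10 pigs, at an adjusted p of up to 0.0708, and with only the arrays of both breeds (adjusted p = 0.0643). These were F1 24 replicate 3, F1 30 replicates 1, 3, 4 and 6, LW 24 replicates 1 and 2 and LW 30 replicates 2, 3 and 4.

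FOS, JUN and EGR1 varied widely between pigs of the same group. The SD of FOS probe 1 within groups was 0.99 log2 units, above that of 99.6% of all tested probes, whose median SD was 0.18. JUN had an SD of 0.50 and EGR1 of 0.50, above 96.1% and 96.0% of probes. MYC had 0.26, above 77.0%, whereas the FOSL2 probe at 0.16 and the JUNB probe at 0.13, whose strand was not tested, were below the median.

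The wide LW 30 group showed this most plainly. FOS probe 1 read 9.76, 9.27, 13.33, 9.98, 12.72 and 12.05 in LW 30 replicates 1 to 6. Replicates 3, 5 and 6 were thus more than 2 log2 units above replicates 1, 2 and 4. EGR1 read 7.51, 7.68, 9.26, 7.56, 9.30 and 8.41 in the same order, and JUN read 12.76, 12.61, 13.82, 12.69, 13.88 and 13.68. The same 3 pigs were high for all of FOS, EGR1 and JUN. MYC, at 7.66, 8.17, 8.45, 8.24, 8.18 and 8.01, did not split in this way. High and low pigs lay on the same slides, with replicates 2 and 3 on slide 2 and replicates 4 and 5 on slide 3. The slaughter day, pen and litter of these pigs are not in the labels, so the part of each in this split was not tested.

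Taking each pig's deviation from the mean of its group, FOS and EGR1 moved together in nearly every pig. Over 36 pigs their Pearson correlation was 0.92 and their Spearman correlation 0.90, and Pearson's r was 0.91 without the 2 pigs farthest from the FOS median. The sign of both deviations was shared in 34 of 36 pigs. Between FOS and JUN the values were 0.59 and 0.62, with 0.53 without those 2 pigs and a shared sign in 25 of 36 pigs. Within temperatures the FOS and EGR1 correlation was 0.93 at 24 °C and 0.92 at 30 °C (18 pigs each), and that of FOS and JUN 0.49 at 24 °C and 0.82 at 30 °C. FOS and MYC had 0.25, FOS and ATF3 0.38, and FOS had 0.10 and -0.06 with the JUNB and FOSL2 probes, whose strand was not tested. All these values are descriptions over the same 36 arrays, which share their RNA extract and hybridisation for every gene.

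**Figure D4:**
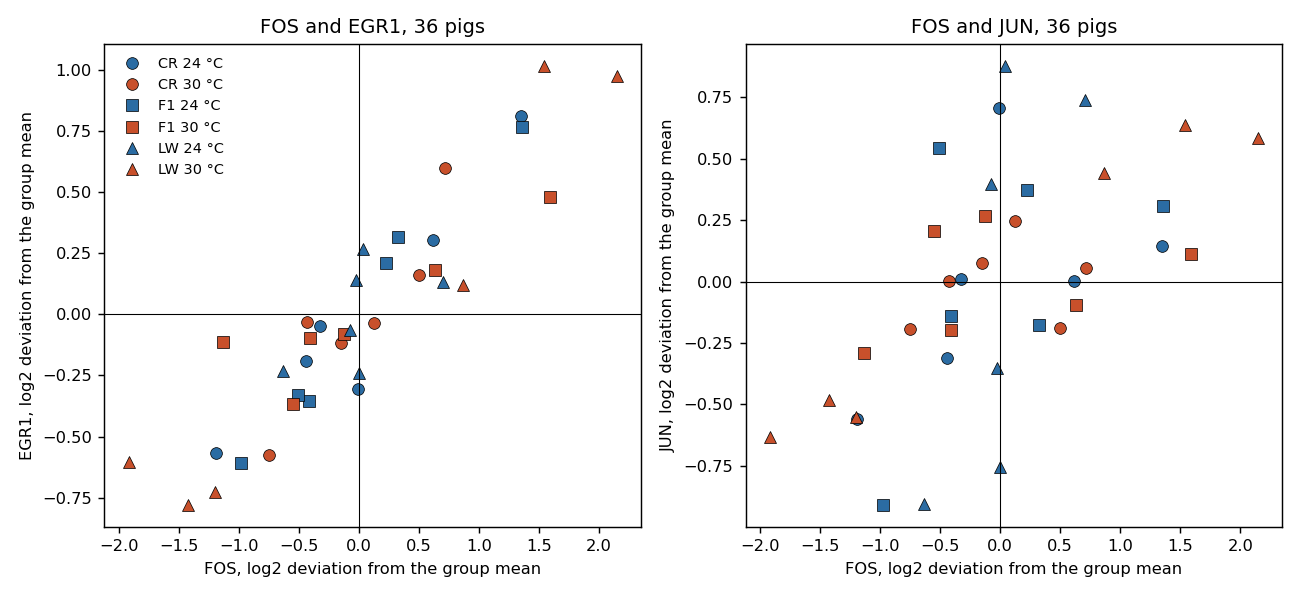
Deviation of each pig from the mean of its group for EGR1 and for JUN (vertical axes, log2 units) against that for FOS (horizontal axes, log2 units), 1 point per pig, 36 pigs, with breeds by shape and temperatures by colour. EGR1 follows FOS closely (r = 0.92) and JUN more loosely (r = 0.59).

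The named genes outside the list whose deviations were most like those of FOS were CCN1, CD83, CCL2, RGS1 and PTGS2, with Pearson correlations of 0.85, 0.78, 0.75, 0.70 and 0.70 over 36 pigs. Among all named genes EGR1 ranked next after FOS itself, JUN ranked 12 and MYC 907. CCN1, a matrix-associated signalling protein that is itself an immediate early gene, ran from 11.10 to 13.25 at 24 °C and from 9.80 to 11.96 at 30 °C, a log2 difference of -1.27 (SE 0.20, limma adjusted p = 7.31e-05). RGS1, a regulator of G protein signalling in leukocytes, fell by 0.95 on the log2 scale (SE 0.18, adjusted p = 0.00148). CCL2, a monocyte chemokine, fell by 0.54 on the log2 scale (SE 0.11, adjusted p = 0.00304), and CD83, a marker of activated dendritic and B cells, fell by 0.76 on the log2 scale (SE 0.20, adjusted p = 0.0489), a call that was lost in 25 of the 36 omissions of a pig (adjusted p of up to 0.0845). PTGS2, the inducible prostaglandin synthase, was at -0.43 (SE 0.15, adjusted p = 0.240).

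Most other genes of the same pathways were not called. Of 36 other immediate early genes 30 were tested and 2 were called, both lower: CCN1 and MCL1, a survival protein of the BCL2 family, which was at -0.16 (SE 0.04, limma adjusted p = 0.0116). Of their probes, 4 of 5 were called for CCN1, the other being at 0.08, and 4 of 8 for MCL1, whose probes ran from -0.23 to -0.02. Over the 30 tested genes of this list the median was -0.05, 21 were negative and 10 had an unadjusted p under 0.05. Of all 46222 tested probes, 4503 had an unadjusted limma p under 0.05 in this comparison, and 44.4% were negative. Among the brakes of MAP kinase signalling 2 of 5 tested genes were called lower, out of 9 listed. DUSP1, the phosphatase that is induced with FOS and switches MAP kinases off, ran from 10.63 to 13.09 at 24 °C and from 10.28 to 11.65 at 30 °C. Its log2 difference was -0.79 (SE 0.13, adjusted p = 0.000164), both its probes were called and all 18 pigs at 30 °C lay below the 24 °C mean of their breed. SPRY2, an inhibitor of receptor tyrosine kinase signalling, was at -0.27 (SE 0.07, adjusted p = 0.0408), its other probe was at -0.01, and its call was lost in 19 of the 36 omissions of a pig (adjusted p of up to 0.0696). DUSP6, the phosphatase specific for ERK, was at -0.17 (adjusted p = 0.488).

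By limma 0 of 7 tested among 12 other AP-1 subunits were called (median -0.03, 0 with an unadjusted p under 0.05), FOSL1 being at -0.03 and JDP2, a repressive partner of JUN, at -0.12. Likewise 0 of 4 tested among 5 other EGR factors and their corepressors were called (median 0.04, 2 with an unadjusted p under 0.05), with EGR2 at -0.12 and the corepressors NAB1 and NAB2 at 0.06 and 0.14. Of the kinases and factors that switch these genes on, 0 of 15 tested among 17 were called (median -0.00, 1 with an unadjusted p under 0.05). Among 14 tested of 15 AP-1 target genes 1 was called, CCL2, 4 had an unadjusted p under 0.05 and the median was -0.02. MYC partners had 0 called of 9 tested among 13 (median 0.03, 0 with an unadjusted p under 0.05) and MYC target genes 0 of 19 tested among 20 (median 0.00, 1 with an unadjusted p under 0.05). The pathway lists thus held 5 called genes, all lower, beside the listed genes, and 0 of their genes were called higher. Among the 11229 named genes 1.07% were called lower. Most calls on the array had this direction, with 405 of the 545 called probes lower.

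**Figure D5:**
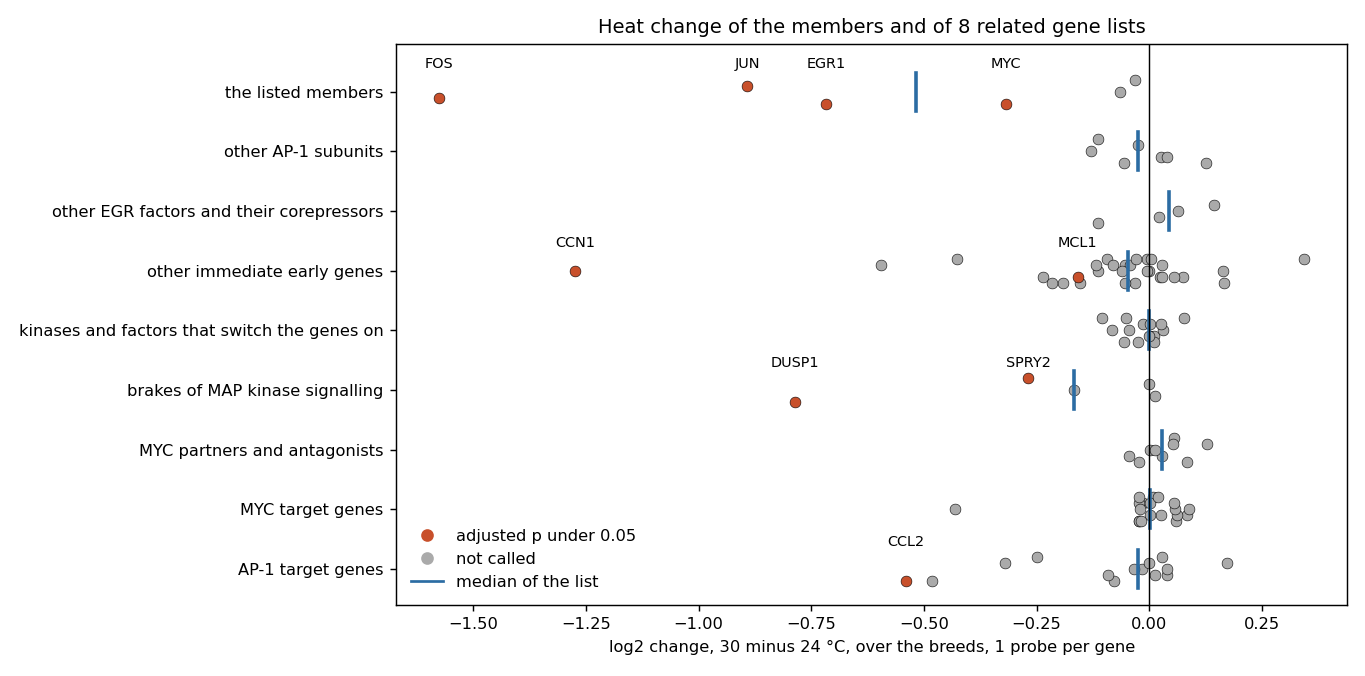
Difference between 30 °C and 24 °C pigs (horizontal axis, log2 units) for every tested gene of the listed genes and of 8 lists of related genes (vertical axis), 1 point per gene on 1 probe, called genes in orange and the list median as a blue line. The listed genes reach from -1.58 to -0.03, while the medians of the other lists lie between -0.17 and 0.04.

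Most fibroblast, adipocyte and myeloid markers also had lower values at 30 °C, and of the erythroid markers 4 of 6 did. Of 6 tested erythroid markers 1 was called, HBB, the beta chain of haemoglobin, at -1.0 (SE 0.19, limma adjusted p = 0.00142) and lower in all 18 pigs at 30 °C than the 24 °C mean of their breed. The erythroid changes ran up to 0.07 with a median of -0.14, and 3 of the 6 had an unadjusted p under 0.05. The summed erythroid signal ran from 4764 to 7715 (median 6321) at 24 °C and from 3944 to 6964 (median 5451) at 30 °C. None of 9 neutrophil and macrophage, 6 fibroblast or 6 adipocyte markers was called, but 4, 2 and 3 had an unadjusted p under 0.05, and 9 of 9, 5 of 6 and 6 of 6 were negative, with medians of -0.26, -0.28 and -0.32. Among all tested probes 4503 of 46222 had an unadjusted limma p under 0.05, and 44.4% were negative. The summed signals of these markers overlapped between temperatures, for instance from 4465 to 7118 at 24 °C and from 3676 to 7358 at 30 °C for the neutrophil and macrophage markers. The medians of the follicular, T and B cell and endothelial markers were 0.05, 0.01 and 0.01. The part of these cells in the differences of FOS, JUN, EGR1 and MYC was not tested, and in RNA of the whole gland fewer cells of a type and less RNA per cell cannot be told apart.

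The heat differences were found within slides. Each of slides 1 to 4 held 8 arrays with 4 pigs at each temperature, and with a term for breed the FOS difference lay between -1.84 and -0.97, that of JUN between -1.45 and -0.50, that of EGR1 between -0.90 and -0.31 and that of MYC probe 1 between -0.48 and -0.27. All 4 slides were thus negative for these 4 genes, while FOSL2 ran from -0.13 to 0.02 and JUNB from -0.03 to 0.05. Slide 5 held 4 arrays, on which breed and temperature cannot be told apart.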

How the data were processed

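RNA of 36 thyroids was measured on 1-colour Agilent arrays on 5 slides, read by the authors with Feature Extraction 10.10.1.1 per the labels' processing notes. The deposited scanner files give spot intensity on a linear scale. The median intensity of the 60306 spots that are not controls (array medians 132.5 to 173, negative controls 25 to 28) was quantile-normalised without background subtraction and log2-transformed, 106 non-uniform spots were set to missing, and spots of a probe were averaged. No spot was saturated. The authors also deposited a table of log2 values for 46097 probes, used as an alternative (median difference 0.00556). Probes well above background on at least 5 of 6 arrays of a group were tested (46222). With limma 3.58.1 in R 4.3.3, heat and breed differences came from a model with breed and temperature, and within-breed and interaction values from 6 group means. Adjusted p is Benjamini-Hochberg over all tested probes. The published model's random effects could not be fitted, as they are not in the labels. A gene stands on its brightest tested named probe. Named genes were all listed genes, the 5 genes most like FOS and the called genes of the lists; DUSP6, FOSL1, JDP2, EGR2, NAB1 and NAB2 were added after their values were seen. The members and lists were chosen with earlier results of these data known. The number of arrays limits the precision. The procedure was tested on simulated data.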

Additional observations from a re-analysis of the deposited data

How the results depend on the processing

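No paired analysis was possible because the titles carry no replicate numbers and the labels do not tie pigs to litters or pens. Alternatives were 75th percentile scaling of the median or the processed signal, normexp, the deposited table, no filter or a stricter one, slide (fixed or random) or array position as a block, no breed term, only the arrays of the breeds compared, the mean of all tested probes of a gene, and leaving out each pig. Of 538 values of named genes under the other settings 520 kept direction and side of the threshold, 14 lost and 4 gained a call and 0 reversed; of 1800 values with a pig left out 1691 did so, 93 lost and 13 gained a call and 3 reversed. FOS stayed called, at -1.63 to -1.55 under other settings and -1.70 to -1.44 with a pig left out (highest adjusted p 0.00466), as did JUN (highest 0.00602), EGR1 (highest 0.0143) and JUN between LW and CR (highest 0.0187). MYC probe 1 lost its call with the processed signal (adjusted p = 0.0651) and with no breed term (0.0653), so that 3 of 6 genes were called there; CD83 lost it under 4 settings (highest 0.0675) and SPRY2 with normexp (0.0714) and the gene mean (-0.14, 0.500). The reversed values were all of EGR1 between F1 and CR, which was not called: 0.013 without CR 30 replicate 2, 0.016 without F1 24 replicate 3 and 0.0287 without CR 24 replicate 5, in a range from -0.113 to 0.0287. With only the arrays of the breed, 111 probes were called within CR in place of 179 and 0 within F1 in place of 177; with the gene mean, 594 genes differed between F1 and LW in place of 920 probes, fewer features being tested; the cause of the others was not tested. With a pig left out, the probes called within F1 ran from 68 to 272 (68, 72, 92 and 110 without F1 24 replicates 3 and 2 and F1 30 replicates 6 and 3, 272 without F1 24 replicate 4) and within LW from 0 to 16 (16 without LW 24 replicate 1, 15 without LW 30 replicate 3). Low signal limits ATF3, FOSB, JUNB and JUN probe 1, and the untested strand of their single probes limits FOSL2, JUNB and EGR1.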
